A study of Mus musculus with 12 samples.

Results

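The genes described here encode the subunits of the WAVE regulatory complex and the Rac GTPases that switch it on. They were followed in tumor-associated macrophages (TAMs) of the mouse. The 10 genes were chosen by symbol, as Nckap1, Nckap1l, Cyfip1, Cyfip2, Abi1, Abi3, Wasf2, Brk1, Rac1 and Rac2, out of 55401 gene identifiers in each count table. All 10 were found on 1 row each and passed the filter on low counts in both tables.

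The study asked how tumor stage and loss of the energy-sensing kinase AMPK relate to cell death in TAMs. By the methods, cells were sorted by FACS as CD45+CD11b+Ly6C-Ly6G-F4/80+ from subcutaneous tumors of the B16-F10 melanoma line in C57BL/6-background mice. Supplementary captions print other signs, Ly6C+Ly6G+ for the gating strategy and Ly6G-Ly6C+ for the frequency of TAMs. RNA of the sorted cells was sequenced in bulk. The first comparison sets 3 late-stage samples (day 15 after implantation) against 3 early-stage samples (day 8), both of WT genotype. The second sets 3 AMPK-KO samples, labelled AMPKfl/flLyz2cre/cre, against 3 samples of AMPKfl/fl mice without Cre, which the study calls WT and which carry the same floxed allele; by the methods these tumors were taken at day 15. None of the samples received a drug. Cre driven from Lyz2 acts in myeloid cells as a class, so that neutrophils and monocytes are targeted along with macrophages. The genotype entries of AMPK-KO replicates 2 and 3 read Lyz3cre and Lyz4cre, whereas their titles read Lyz2cre. How many mice gave each sample is not given in the sources used here, and p-values measure only the spread between the 3 samples of a group.

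The WAVE complex is a pentamer made of a CYFIP subunit, a NCKAP1 subunit (also called NAP1), an ABI subunit, a WAVE protein and the small subunit BRK1 (also called HSPC300). It is held inactive until GTP-bound Rac binds the CYFIP subunit, which frees the tail of the WAVE protein to activate the Arp2/3 complex and grow a branched actin network. In macrophages this network drives lamellipodia, membrane ruffles, migration and the engulfment of particles. Several subunits come in paralogs with different tissue ranges. NCKAP1L (HEM1) and RAC2 are made mainly by blood cells, ABI3 is prominent in macrophages and microglia, and NCKAP1 is made by most cells outside the blood lineage. Nckap1 and Rac2 are among the genes that the study chose to display from these same libraries, so their direction here is not independent evidence.

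Library totals ranged from 77155066 to 84470374 counts at the early stage, 79623704 to 82499295 at the late stage, 71019494 to 81671067 in WT and 73669620 to 80911139 in AMPK-KO. Levels are given as CPM, counts scaled to 1000000 per library with TMM factors within a table. Prkaa1, which encodes a catalytic AMPK subunit, was measured at 68.8, 62.8 and 63.3 CPM in the WT samples and at 47.0, 40.9 and 40.8 CPM in the AMPK-KO samples. It was lower in every AMPK-KO sample (log2 fold change -0.60, adjusted p = 0.000226 with edgeR's quasi-likelihood test, Benjamini-Hochberg over all genes). The labels do not say which exons the floxed allele removes, so counts outside the deleted part can remain. The 10 macrophage markers summed to 10691 to 12741 CPM at the early stage, 13176 to 13282 at the late stage, 13940 to 15157 in WT and 13578 to 13793 in AMPK-KO, with none at 0. The methods name female mice. Even so, genes of the Y chromosome (Uty, Kdm5d, Eif2s3y and Ddx3y) had counts in all early-stage, WT and AMPK-KO samples, while Uty, Kdm5d and Eif2s3y had 0 counts in the late-stage samples. Ddx3y stood at 15.8, 19.0 and 20.3 CPM early and at 0, 0.05 and 0 CPM late. Xist, a transcript of female cells, stood at 164, 286 and 221 CPM early and at 496, 300 and 300 CPM late. In the second experiment Xist had only 2.19, 0.83 and 1.64 CPM in WT and 0, 0.10 and 0.06 CPM in AMPK-KO. Sex composition and tumor stage cannot be told apart in the first comparison. None of the 10 genes lies on a sex chromosome.

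A further difference between libraries bears on several of the genes. In each library, log2 CPM was taken as the deviation from the mean of its table, and the median over short protein-coding genes (the lowest 25% by merged exon length) was subtracted from that over long ones (the highest 25%). This value was -0.20, 0.01 and 0.19 in early-stage replicates 1, 2 and 3, and between -0.03 and 0.03 in the late-stage samples. It was 0.10, -0.21 and -0.09 in WT replicates 1, 2 and 3 and 0.14, 0.09 and -0.06 in the AMPK-KO samples. The spread thus lay mostly within the early-stage, WT and AMPK-KO groups, and this value is called the length trend below.

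With tumor stage, 1 of the 10 genes rose (Cyfip2) and 1 fell (Nckap1). Of all 17630 genes tested in this comparison 9.18% were called (4.31% higher and 4.88% lower), with an adjusted p under 0.05 in edgeR as the rule for a call. The median log2 fold change was 0.05 over the 10 genes and 0.0027 over all genes tested. In AMPK-KO against WT, 3 genes rose (Abi3, Rac2 and Nckap1l) and 1 fell (Nckap1), beside 21.1% of 17532 genes tested (11.3% higher and 9.78% lower). The median was 0.15 over the 10 genes and -0.0037 over all genes. None of the 10 passed the study's fold threshold, an absolute log2 fold change above 1, which together with the adjusted p 1.87% of all genes did in the first comparison and 3.34% in the second. The 3 samples of a group did not overlap with those of the other for 5 of the 10 genes in each comparison, against 31.2% of all genes by stage and 37.2% by genotype.

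**Figure D1:**
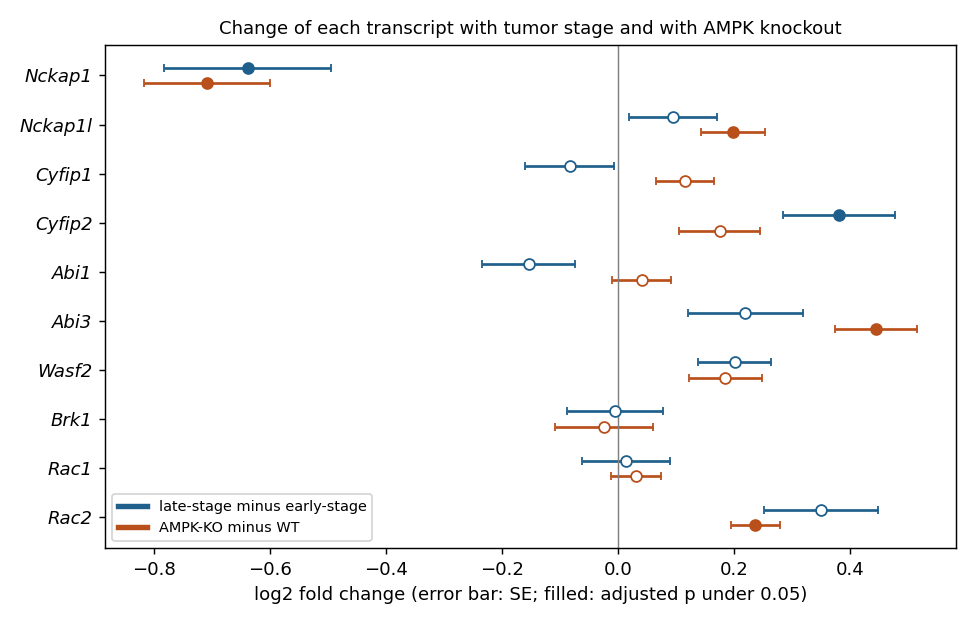
The log2 fold change of each of the 10 genes (points) with its standard error (bars) for late-stage minus early-stage and AMPK-KO minus WT, where filled points had an adjusted p under 0.05. Nckap1 lies furthest to the left in both comparisons, at -0.64 and -0.71. Furthest to the right lie Cyfip2 and Rac2 by stage and Abi3 and Rac2 by genotype.

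To compare genes with each other, levels were divided by the merged exon length. In WT samples the most abundant were Rac2 at 121 ± 1.40 CPM per kb (mean ± SD, n = 3 here and below), Brk1 at 120.4 ± 11.7, Rac1 at 117 ± 2.84 and Nckap1l at 106 ± 6.91. The first 3 did not differ beyond the spread of Brk1, and the range of Nckap1l overlapped with that of Brk1. Abi1 followed at 58.2 ± 1.07, then Wasf2 at 43.6 ± 2.43 and Cyfip1 at 40.3 ± 1.67, whose ranges also met. Abi3 stood at 16.7 ± 1.48, Cyfip2 at 13.1 ± 1.25 and Nckap1 at 7.48 ± 0.858 CPM per kb, the lowest of the 10 and each apart from its neighbours. The lowest place of Nckap1 held in all 4 groups, and Abi1, Wasf2 and Cyfip1 kept the places in the middle. Rac2 had the highest mean in the late-stage (141 ± 5.72) and AMPK-KO (142 ± 3.76) samples, whereas in the early-stage samples Rac1 did (132 ± 8.45). The ranges of Rac1 and Rac2 overlapped early (122 to 138 and 96.2 to 127) and late (124 to 140 and 135 to 145), but not in AMPK-KO.

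**Figure D2:**
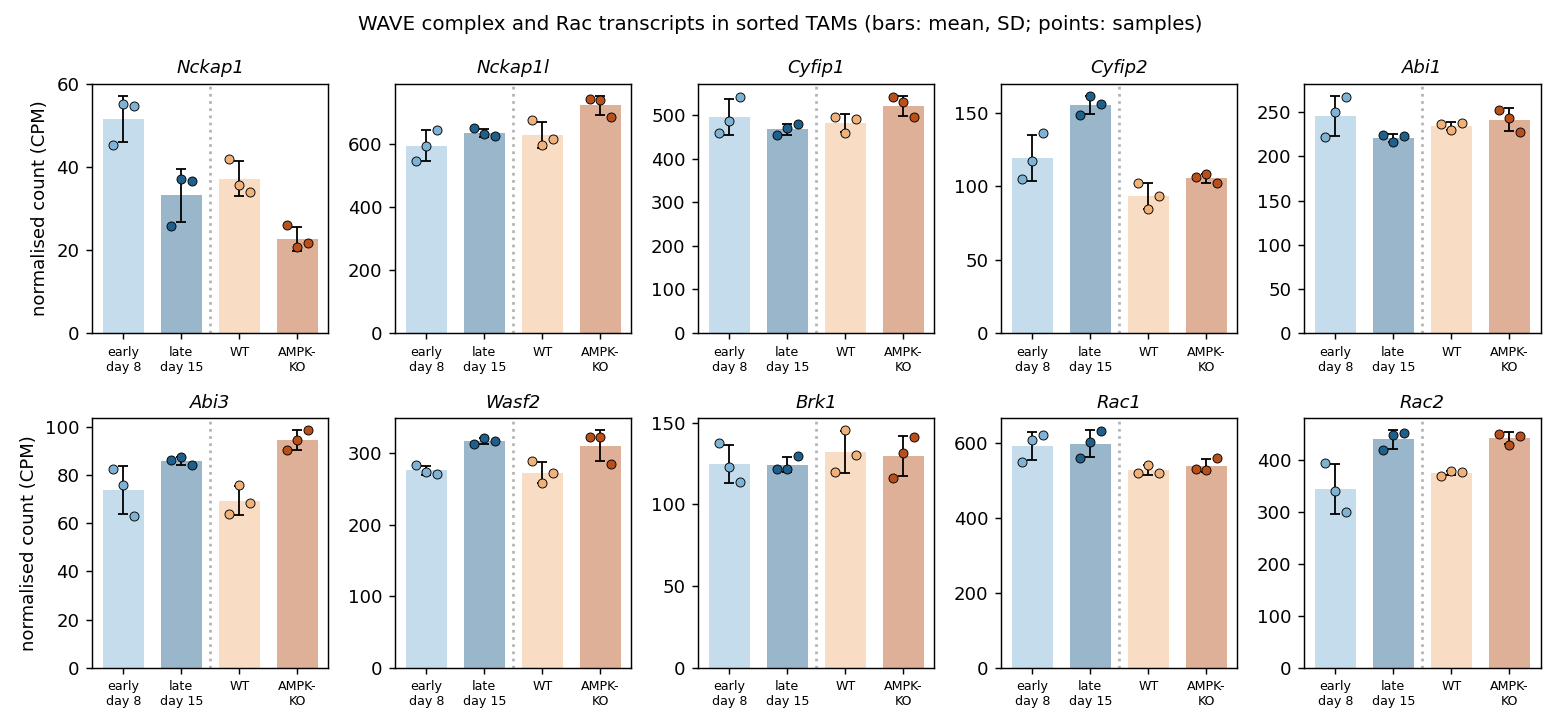
Normalised counts (CPM, linear axes from 0) of the 10 genes in each sample, as points over bars of the group mean with SD (n = 3), with the 2 experiments separated by a dotted line. The late-stage and AMPK-KO points of Nckap1 all lie below those of their controls, while Rac1 and Brk1 overlap throughout.

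Nckap1 encodes the broadly expressed NAP1 subunit that spans the complex together with CYFIP, and Nckap1l its counterpart in blood cells. Nckap1 lies on chromosome 2 (80500512 to 80581380, minus strand) and Nckap1l on chromosome 15 (103453794 to 103498810, plus strand) of GRCm38, as in GENCODE M21. Their coding sequences are 62.4% identical over 3376 aligned bases, and the longest identical run is 17 bases. The exon with that run, 98 coding bases in both genes, shows how far reads of the paralogs can be told apart. It is coding exon 24 of 32 in Nckap1 (chr2:80519559-80519656, minus strand) and coding exon 23 of 31 in Nckap1l (chr15:103486332-103486429, plus strand), with 68 identical bases (69.4%). Capitals mark the 17-base run.
Nckap1: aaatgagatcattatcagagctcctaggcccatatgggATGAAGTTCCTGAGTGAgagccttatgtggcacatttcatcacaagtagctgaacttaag
Nckap1l: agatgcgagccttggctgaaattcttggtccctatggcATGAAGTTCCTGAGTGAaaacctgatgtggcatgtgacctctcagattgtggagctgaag

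Nckap1 fell with tumor stage. Its level was 45.1, 55.0 and 54.5 CPM in the early-stage samples and 25.7, 37.1 and 36.6 CPM in the late-stage samples. The groups did not overlap, and late-stage replicate 1 was the lowest. The change was -0.64 on the log2 scale (SE 0.14, adjusted p = 0.0240 with edgeR), a decrease of the fitted level to 0.642 of the early-stage level. The call was lost without early-stage replicate 2 (adjusted p = 0.111), without late-stage replicate 1 (0.0543), 2 (0.0509) or 3 (0.0580), and without the filter on low counts (0.0769), while the direction held in all of these.

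AMPK-KO TAMs also had less Nckap1 than their controls. WT samples gave 41.9, 35.6 and 33.8 CPM and AMPK-KO samples 25.9, 20.6 and 21.6 CPM, again without overlap. The log2 fold change was -0.71 (SE 0.11, adjusted p = 0.00104 with edgeR), and it passed the test under every alternative tried except the study's fold threshold. The late-stage samples and the WT samples of the second experiment, both from day 15 by the labels or the methods, had 33.1 ± 6.46 and 37.1 ± 4.26 CPM of Nckap1, in separate tables that were scaled separately.

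Nckap1l, which per kb of exon was 8.99 to 30.0 times as abundant as Nckap1 in the 12 samples, did not fall. It stood at 546, 592 and 644 CPM in the early-stage and 649, 631 and 623 CPM in the late-stage samples (log2 fold change 0.09, SE 0.08, adjusted p = 0.494), with overlap. By genotype it rose from 675, 596 and 616 CPM in WT to 742, 738 and 686 CPM in AMPK-KO (0.20, SE 0.06, adjusted p = 0.0276 with edgeR). The groups did not overlap. This call was lost without WT replicate 2 (adjusted p = 0.0823) or 3 (0.135), without AMPK-KO replicate 1 (0.105) or 2 (0.118), and without the filter (0.0750). With the length trend as a covariate it was 0.13 (adjusted p = 0.00606).

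The level of Nckap1 was then set against that of Nckap1l within each sample, per kb of exon, which does not depend on library scaling. Nckap1 reached 9.88%, 11.1% and 10.1% of Nckap1l in the early-stage samples and 4.73%, 7.04% and 7.02% in the late-stage samples. In WT it reached 7.43%, 7.14% and 6.57%, and in AMPK-KO 4.18%, 3.34% and 3.76%. No sample of a tested group overlapped with its controls. The log2 ratio differed by -0.75 between the stages (-3.27 ± 0.0903 early, -4.02 ± 0.330 late) and by -0.91 between the genotypes (-3.83 ± 0.0904 WT, -4.74 ± 0.163 AMPK-KO). The two-sided exact permutation test gave p = 0.1 for each, the smallest value that 3 samples against 3 allow.

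Melanoma markers moved with Nckap1. The 8 markers (Pmel, Mlana, Tyr, Tyrp1, Dct, Mitf, Sox10 and Slc45a2, genes of pigment synthesis and of the melanocyte lineage) summed to 1732, 1743 and 1886 CPM in the early-stage samples and 795, 1231 and 1255 CPM in the late-stage samples. Of these 8, 6 were called lower at the late stage, beside 4.88% of all genes tested, with a median log2 fold change of -0.68. The sums were 1038, 1037 and 1040 CPM in WT and 744, 736 and 703 CPM in AMPK-KO. There 7 of 8 were called lower, beside 9.78% of all genes tested, with a median of -0.49. No marker was at 0 in either table. Late-stage replicate 1 had the lowest marker sum and the lowest Nckap1 level of its group, as did early-stage replicate 1. In WT the sums were nearly equal while Nckap1 ran from 33.8 to 41.9 CPM, lowest in replicate 3, which had the highest sum. In AMPK-KO replicate 3 had the lowest sum and replicate 2 the lowest Nckap1. Over the 12 samples, each centred within its table on the log2 scale, the marker sum and Nckap1 had a Pearson correlation of 0.93. For the other lists set against Nckap1 in this way it was 0.32 (fibroblast), -0.09 (NK cell), -0.30 (macrophage) and -0.81 (T cell). These points share libraries and group differences, so these values are descriptions. In a bulk sample, fewer cells of a type and less RNA per cell cannot be told apart. The part of melanoma RNA in the fall of Nckap1 was not tested.

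**Figure D3:**
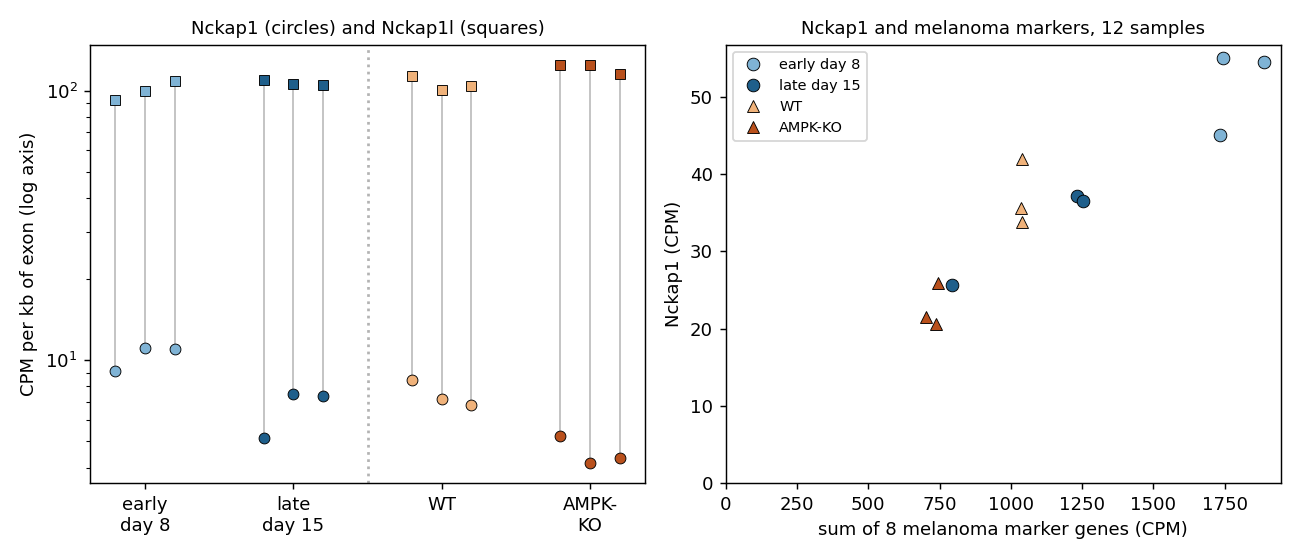
Left, Nckap1 (circles) and Nckap1l (squares) in CPM per kb of exon on a log axis, joined for each sample; right, Nckap1 in CPM against the summed CPM of 8 melanoma markers, with 1 point per sample. Nckap1 lies at 4.15 to 11.1 CPM per kb and Nckap1l at 92.0 to 125, and the early-stage samples have both the highest marker sums and the highest Nckap1.

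The genes most like Nckap1 over the 12 samples were sought among 16812 genes tested in both tables by Pearson correlation of log2 CPM centred within each table. Magi1, which encodes a scaffold protein of cell junctions, came first (r = 0.983). It was followed by the cell adhesion gene Nrcam (0.980), the neural crest transcription factor gene Pax3 (0.971), the endosomal sorting gene Stam2 (0.969) and the ubiquitin ligase gene Nedd4 (0.966). Nrcam stood at 49.3 CPM at the early and 30.7 CPM at the late stage, and at 31.2 CPM in WT and 17.6 CPM in AMPK-KO. Pax3 went from 19.6 to 13.9 CPM and from 15.2 to 10.5 CPM in the same order. Among the other 9 members the correlations with Nckap1 ran from -0.85 for Abi3 and -0.77 for Rac2 to 0.39 for Abi1. For Nckap1l the closest genes were Pik3cg (0.981), which encodes a PI3-kinase catalytic subunit of leukocytes, Arhgef6 (0.978), Fnbp1l (0.977), Dock10 (0.973) and Nin (0.971). Arhgef6 and Dock10 encode guanine nucleotide exchange factors, and Fnbp1l a membrane-bending protein that binds N-WASP. Of the members, Cyfip2 (0.81) and Wasf2 (0.75) were most like Nckap1l. All of these values are descriptions over samples that share group differences.

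The CYFIP subunit is the docking site of Rac on the complex. Cyfip1 lies on chromosome 7 (55841745 to 55932602, plus strand) and Cyfip2 on chromosome 11 (46193850 to 46312859, minus strand). Their coding sequences are 77.8% identical, with no identical run over 24 bases. Cyfip2 rose with tumor stage, from 105, 117 and 136 CPM to 149, 161 and 156 CPM, with no overlap between the groups. The log2 fold change was 0.38 (SE 0.10, adjusted p = 0.0377 with edgeR), and early-stage replicate 3, the library with the highest length trend, lay closest to the late-stage samples. The call was lost without early-stage replicate 2 (adjusted p = 0.150), without late-stage replicate 1 (0.0939), 2 (0.158) or 3 (0.133), and without the filter (0.0944). With the length trend as a covariate the change was 0.40 (adjusted p = 0.00138). Cyfip1 stood at 459, 486 and 541 CPM early and 453, 471 and 478 CPM late (-0.08, adjusted p = 0.560).

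By genotype neither CYFIP gene passed the test. Cyfip2 had 102, 84.5 and 93.1 CPM in WT and 106, 108 and 102 CPM in AMPK-KO (0.18, SE 0.07, adjusted p = 0.109), where WT replicate 1 lay above AMPK-KO replicate 3. Cyfip1 had 495, 459 and 491 CPM in WT and 540, 529 and 496 CPM in AMPK-KO (0.12, SE 0.05, adjusted p = 0.138), groups that just failed to overlap. Per kb, Cyfip2 made up 28.8% ± 0.968 of the CYFIP total at the early stage and 35.8% ± 0.623 at the late stage. The lowest late-stage share, 35.4%, was above the highest early-stage share, 29.7%. In WT and AMPK-KO the share was 24.5% ± 1.11 and 25.3% ± 0.455, with overlap.

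The ABI subunit links the complex to the membrane and to kinases such as ABL. Abi1 lies on chromosome 2 (22940073 to 23040241, minus strand) and Abi3 on chromosome 11 (95830074 to 95842476, minus strand), and their coding sequences share 59.9% of aligned bases. Abi3 rose in AMPK-KO TAMs. It was measured at 64.0, 76.1 and 68.3 CPM in WT and at 90.4, 94.5 and 98.6 CPM in AMPK-KO, and the groups lay well apart. The log2 fold change was 0.44 (SE 0.07, adjusted p = 0.00132 with edgeR), or 36.1% more, the largest rise among the 10, and it passed under every alternative tried except the study's fold threshold. By stage, Abi3 had 82.5, 76.1 and 62.8 CPM early and 86.3, 87.4 and 84.2 CPM late (0.22, SE 0.10, adjusted p = 0.211). These groups did not overlap either, and with the length trend as a covariate the same difference of 0.22 had an adjusted p of 0.0229.

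Exons of Abi3 share bases with genes on the opposite strand, 2913 with Zfp652, 1708 with Phospho1 and 234 with Gngt2. Per sample these had up to 107% (Zfp652), 4.8% (Phospho1) and 75.1% (Gngt2) as many counts as Abi3 itself by stage, and up to 93.3%, 3.84% and 66.9% by genotype. Whether the counting used strand is not given in the sources used here, and without it reads of overlapping genes cannot be told apart, so the level of Abi3 is less certain than that of the others. The same holds to a lesser degree for Rac1, which shares 2309 bases with Daglb (up to 25.6% of its counts), Cyfip1, which shares 1316 bases with Nipa2 (up to 17.1%) and 173 with Gm44616, and Abi1, which shares 194 bases with Pdss1.

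Abi1 did not pass the test in either comparison. It had 221, 250 and 267 CPM early against 224, 216 and 223 CPM late (-0.15, SE 0.08, adjusted p = 0.277), and 236, 230 and 238 CPM in WT against 253, 244 and 227 CPM in AMPK-KO (0.04, adjusted p = 0.644). As a share of the ABI total per kb, which includes Abi2, Abi3 went from 21.9% ± 3.94 to 26.5% ± 0.743 with stage and from 21.5% ± 1.82 to 26.8% ± 1.94 with genotype. The shares did not overlap in either comparison, though early-stage replicate 1 (25.7%) was close to the lowest late-stage value (25.9%).

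Wasf2 encodes WAVE2, the member of the WAVE family that activates Arp2/3 in most tissues, and Brk1 the small subunit that stabilises the complex. Wasf2 (chromosome 4, 133130505 to 133199756, plus strand) made up 98.1% to 98.8% of the WAVE family per kb in the 4 group means, and Wasf1 and Wasf3 stayed at 1.29% or below. It had 284, 273 and 271 CPM early and 313, 321 and 317 CPM late, without overlap (0.20, SE 0.06, adjusted p = 0.0793). The genotype difference was of like size, from 289, 258 and 272 CPM in WT to 323, 323 and 285 CPM in AMPK-KO, where WT replicate 1 lay above AMPK-KO replicate 3 (0.19, SE 0.06, adjusted p = 0.0607). Neither difference passed with edgeR, whereas both did with DESeq2 (adjusted p = 0.0239 by stage and 0.0338 by genotype). With the length trend as a covariate the stage difference had an adjusted p of 0.00992 and the genotype difference, then 0.10, one of 0.0644.

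Brk1 (chromosome 6, 113604772 to 113616951, plus strand) had 138, 123 and 114 CPM early, 122, 122 and 130 CPM late, 120, 145 and 130 CPM in WT and 116, 131 and 141 CPM in AMPK-KO. The groups overlapped, with log2 fold changes of -0.0049 (SE 0.08, adjusted p = 0.981) and -0.02 (SE 0.08, adjusted p = 0.882). The sign of the genotype difference turned without WT replicate 2 (0.05) or AMPK-KO replicate 1 (0.05) and with the length trend as a covariate (0.10), none of which passed the test.

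Rac1 and Rac2 are the GTPases that switch the complex on, and Rac2 also activates the phagocyte NADPH oxidase. Rac1 lies on chromosome 5 (143503634 to 143528036, minus strand) and Rac2 on chromosome 15 (78559167 to 78572783, minus strand). Their coding sequences are 77.1% identical over 576 aligned bases.

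Rac2 rose in AMPK-KO TAMs, from 369, 378 and 375 CPM in WT to 450, 427 and 444 CPM, without overlap and with little spread. The log2 fold change was 0.24 (SE 0.04, adjusted p = 0.00278 with edgeR), or 17.8% more, and every alternative except the study's fold threshold kept it past the test. By stage the difference was larger but more spread. Early-stage samples had 394, 340 and 299 CPM and late-stage samples 418, 447 and 450 CPM, and the groups did not overlap. The log2 fold change of 0.35 (SE 0.10) missed the threshold with an adjusted p of 0.0565. It passed with DESeq2 (adjusted p = 0.00995), without early-stage replicate 1 (0.46, adjusted p = 0.00498), with at least 10 counts required in every library (0.0390) and with the length trend as a covariate (0.35, adjusted p = 0.000522).

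Rac1 stood near 0 change in both comparisons. It had 548, 607 and 619 CPM early and 559, 602 and 630 CPM late (0.01, SE 0.08, adjusted p = 0.938), a difference whose sign turned with upper-quartile factors (-0.00020) and without early-stage replicate 1 (-0.04) or late-stage replicate 3 (-0.03). WT samples had 520, 541 and 518 CPM and AMPK-KO samples 530, 527 and 558 CPM (0.03, SE 0.04, adjusted p = 0.678). In shares per kb of the RAC family, Rac2 went from 45.1% ± 4.95 to 51.2% ± 0.662 with stage and from 49.9% ± 0.525 to 53.8% ± 0.877 with genotype. These shares did not overlap, although early-stage replicate 1 (50.4%) and late-stage replicate 3 (50.4%) were almost equal. Rac3, the third paralog, held 1.28% and 0.784% at the early and late stage and 1.62% and 0.833% in WT and AMPK-KO.

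**Figure D4:**
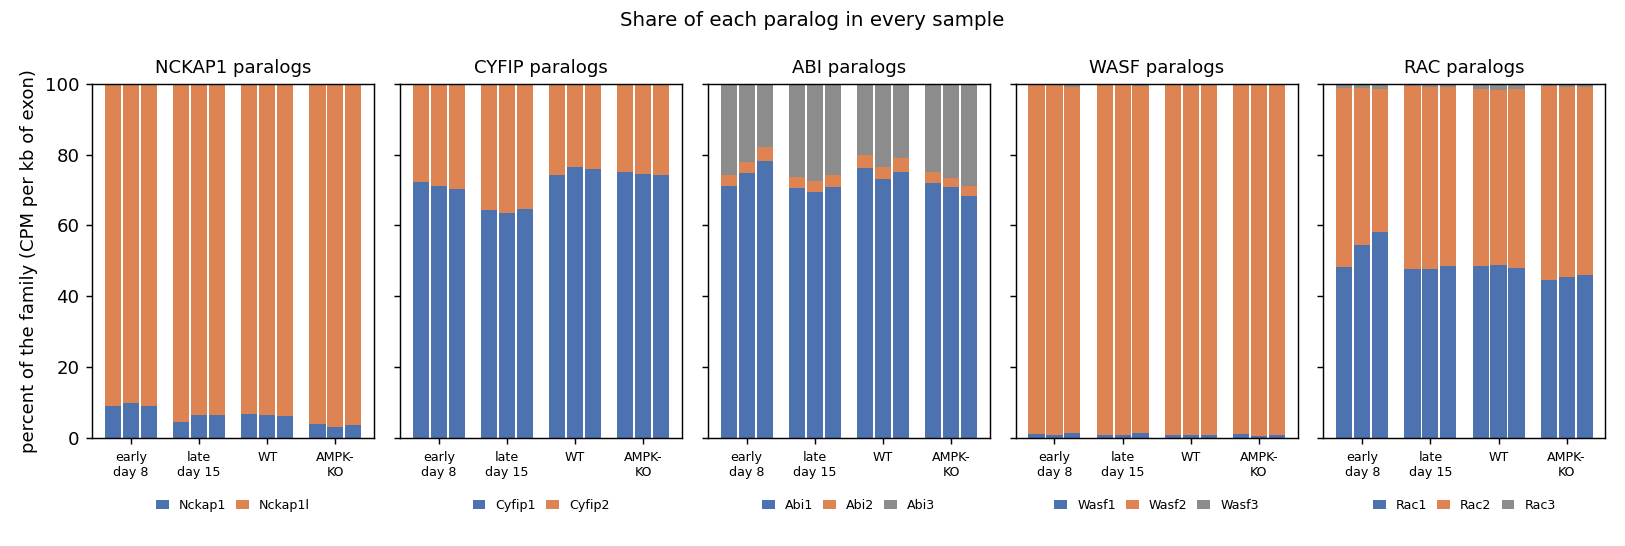
The percent of each paralog family, in CPM per kb of exon, held by each member in every sample (stacked bars to 100%, 1 bar per sample and 3 per group). Cyfip2 takes 35.4% to 36.5% in the late-stage samples against 27.8% to 29.7% early, and Nckap1 shrinks in both comparisons.

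The order of the early-stage replicates differed between the members. Among the early-stage samples, Nckap1l (5935 bases), Cyfip1 (11941), Cyfip2 (7103), Abi1 (4032) and Rac1 (4496) were highest in replicate 3 and lowest in replicate 1. Brk1 (1095), Rac2 (3103), Abi3 (4153) and Wasf2 (6258) were highest in replicate 1 and lowest in replicate 3. Nckap1 (4964) was highest in replicate 2. The split followed length only in part, since Wasf2 is longer than Nckap1l and Abi1 is shorter than Abi3. Of the 10 genes only Brk1 fell among the short genes defined above (at most 2717 bases), and only Cyfip1 and Cyfip2 among the long ones (at least 6732). Replicate 3 had the highest length trend of the table and replicate 1 the lowest. With that trend as a covariate, chosen after the data were seen, 6 of the 10 genes were called by stage in place of 2, namely Wasf2, Cyfip2, Abi3 and Rac2 higher and Nckap1 and Abi1 lower. The fitted differences by stage moved by at most 0.017, while the number of calls over all genes went from 1619 to 3537. By genotype the same 4 genes were called with and without the covariate, and the fitted differences moved by at most 0.12. What produced the length trend was not tested.

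Upstream of the complex, Rac is loaded with GTP by exchange factors and their adaptors. The list of 23 genes used here also holds Dock8, Dock10 and Dock11, whose products act mainly or also on Cdc42. In the AMPK-KO comparison 10 of the 23 rose and 3 fell, beside 11.3% and 9.78% of all genes tested. The median log2 fold change of the list was 0.20. Dock8 (0.32), Dock10 (0.39) and Dock11 (0.28) were among the rises. The 2 with the smallest adjusted p were Prex1 (322 ± 21.4 to 462 ± 19.3 CPM, log2 fold change 0.52, adjusted p = 0.000113 with edgeR), a factor activated by Gβγ and PIP3, and Vav2 (47.0 ± 3.43 to 64.4 ± 2.78 CPM, 0.45). Arhgef7, also known as beta-PIX, fell from 120.3 ± 5.83 to 97.5 ± 4.53 CPM (-0.30). Prex2 fell by 1.54 on the log2 scale, but at levels of 1.89 and 0.647 CPM. With stage 3 of 23 rose and 1 fell, beside 4.31% and 4.88% of all genes tested, with a median of 0.16. Vav2 (45.1 ± 1.18 to 66.7 ± 3.69 CPM, 0.56, adjusted p = 0.00186) and Prex1 (309 ± 9.09 to 419 ± 5.46 CPM, 0.44) were again the first among the rises, and Tiam1 fell from 52.0 ± 6.20 to 30.2 ± 4.32 CPM (-0.78, adjusted p = 0.00412). Tiam1 had 51.1 CPM in WT and 67.4 CPM in AMPK-KO (0.40, adjusted p = 0.00908).

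Rac is turned off by GTPase-activating proteins, held in the cytosol by guanine nucleotide dissociation inhibitors, and kept from WAVE by the CYRI proteins, which bind active Rac in its place. Of 15 such genes tested by genotype 5 rose and 3 fell, beside 11.3% and 9.78% of all genes tested, with a median of 0.15. Both CYRI genes rose, Fam49a (Cyria) from 57.7 ± 1.5 to 89.3 ± 5.50 CPM (0.63, adjusted p = 4.62e-05 with edgeR) and Fam49b (Cyrib) from 289 ± 11.9 to 350 ± 3.45 CPM (0.27, adjusted p = 0.00193). Arhgap22 fell from 47.5 ± 1.19 to 36.5 ± 3.05 CPM (-0.38) and Racgap1, a component of the cytokinesis machinery, from 89.5 ± 6.26 to 75.5 ± 4.93 CPM (-0.25). With stage 4 of 16 rose and none fell, beside 4.31% and 4.88% of all genes tested, with a median of 0.09. Arhgap22 (37.7 ± 3.43 to 60.4 ± 2.57 CPM, 0.68, adjusted p = 0.00154) and Racgap1 (82.1 ± 6.37 to 124 ± 4.55 CPM, 0.60, adjusted p = 0.00157) led these, while Fam49a (0.07, adjusted p = 0.723) and Fam49b (-0.08, adjusted p = 0.511) did not pass. Arhgdig was left out of the genotype test by the filter on low counts.

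Downstream, the Arp2/3 complex nucleates the branches. In AMPK-KO 1 of its 10 genes rose, Actr3 (1066 ± 28.4 to 1278 ± 10.7 CPM, 0.26, adjusted p = 0.000741 with edgeR), and 1 fell, Arpc3 (447 ± 36.9 to 360 ± 10.1 CPM, -0.31, adjusted p = 0.00439). These counts lie near the shares over all genes tested by genotype, 11.3% higher and 9.78% lower. With stage none of the 10 passed, and the medians were 0.04 by genotype and -0.01 by stage. Among 7 inhibitors and branch removers, the coronin genes Coro1a (715 ± 50.6 to 944 ± 52.0 CPM, 0.40) and Coro1b (360 ± 21.8 to 463 ± 16.7 CPM, 0.36) rose by genotype and Arpin, which inhibits Arp2/3 at the cell edge, fell from 10.7 ± 0.622 to 8.22 ± 0.604 CPM (-0.39). Their median was 0.12 by genotype and -0.02 by stage, where none of the 7 passed.

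The WASP family activates Arp2/3 under Cdc42 rather than Rac. Was rose from 106 ± 3.90 to 125 ± 7.14 CPM (0.24, adjusted p = 0.0155) and Wipf1, which encodes its partner WIP, from 155 ± 6.88 to 187 ± 6.63 CPM (0.27, adjusted p = 0.00430) by genotype, 2 of 4 tested with a median of 0.21. By stage none of 4 passed (median 0.05), and Wipf3 was too low to test in both. Of 9 Rac effectors other than WAVE, Plcb2 (46.5 ± 0.375 to 66.6 ± 2.73 CPM, 0.52, adjusted p = 0.000111) and the kinase gene Pak1 (59.96 ± 1.75 to 77.8 ± 1.51 CPM, 0.38, adjusted p = 0.000631) rose by genotype and Baiap2, the gene of the WAVE2-binding protein IRSp53, fell from 37.5 ± 1.94 to 30.6 ± 1.95 CPM (-0.29, adjusted p = 0.0182). The median was 0.13. None of the 9 passed by stage (median 0.17), and Pak3 was not tested in either table. Over all genes tested, the shares called were 11.3% higher and 9.78% lower by genotype and 4.31% and 4.88% by stage.

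Neither Wasf1 and Wasf3 nor Abi2, the remaining paralogs of the subunits, passed in either comparison, with medians of 0.01 by stage and -0.24 by genotype.

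**Figure D5:**
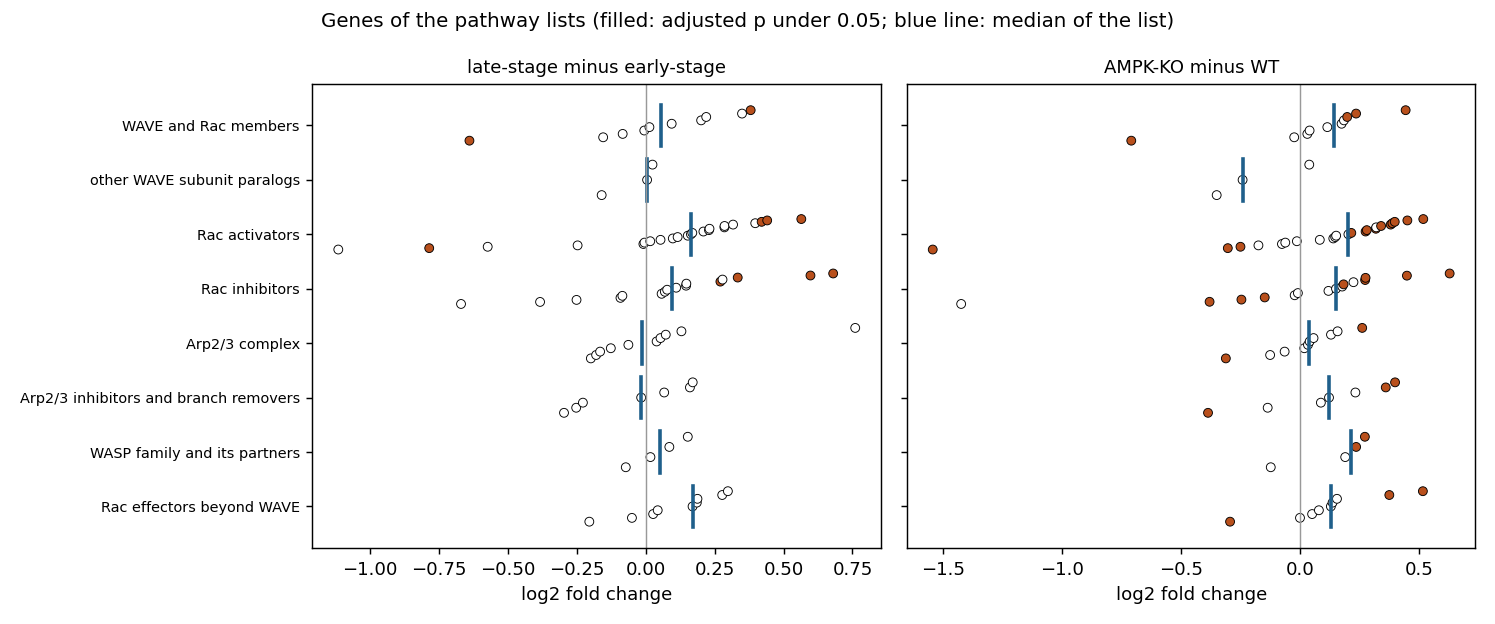
Each point is the log2 fold change of 1 tested gene of a list, late-stage minus early-stage on the left and AMPK-KO minus WT on the right, filled where the adjusted p was under 0.05, with the median of the list as a blue line. The filled points are more numerous on the right, where 21.1% of all genes tested were called against 9.18% on the left.

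Markers of other cell types also differed between the groups. By the gate of the methods, fibroblasts, endothelial cells and melanoma cells (CD45-), most T and B cells (CD11b-) and neutrophils (Ly6G+) should be removed. Even so, genes from their marker lists were counted in these libraries. The counts of called markers stand beside shares over all genes tested of 4.31% higher and 4.88% lower by stage. By genotype these shares were 11.3% and 9.78%. Fibroblast markers summed to 811 to 884 CPM early and 397 to 561 CPM late (3 of 7 lower), and to 575 to 621 CPM in WT and 747 to 829 CPM in AMPK-KO (6 of 7 higher). T cell markers went from 189 to 198 CPM early to 233 to 272 CPM late (3 of 9 higher) and from 116 to 130.04 CPM in WT to 212 to 215 CPM in AMPK-KO (8 of 9 higher). T cells also make Nckap1l, Rac2 and Was. NK cell markers fell with stage, from 89.2 to 103 CPM to 39.7 to 54.2 CPM (5 of 7 lower), and rose with genotype, from 33.3 to 37.2 CPM to 81.7 to 84.9 CPM (7 of 7 higher). Conventional dendritic cell markers ran from 111 to 126 CPM in the stage samples (2 higher and 2 lower of 8), and rose from 99.5 to 113 CPM in WT to 155 to 166 CPM in AMPK-KO (8 of 8 higher). Neutrophil markers had 121 to 128 CPM early and 104 to 109 CPM late (2 of 5 tested lower). By genotype they had 111 to 119 CPM in WT and 183 to 185 CPM in AMPK-KO (4 of 5 higher). Most of each neutrophil sum came from Csf3r (63.7 to 156 CPM over the 12 samples) and Mmp8 (16.1 to 47.1 CPM). Ly6g itself had 0 counts in every sample except late-stage replicate 3, which had 5, and S100a8 and S100a9 each reached at most 2.96 CPM.

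The remaining lists were smaller or less changed, and their counts stand beside the same shares over all genes tested. B cell markers summed to 78.7 to 92.5 CPM early and 99.9 to 132 CPM late (3 of 6 higher), and to 61.7 to 68.0 CPM in WT and 53.4 to 54.6 CPM in AMPK-KO (1 higher and 4 lower of 6). Plasmacytoid dendritic cell markers ran from 659 to 945 CPM by stage (0 of 5 called) and from 817 to 947 CPM by genotype (1 higher and 1 lower). Nearly all of that came from Bst2, Irf8 and Tcf4, while Siglech reached at most 0.725 CPM and Ccr9 at most 2.00 CPM in any sample. Endothelial markers had 86.7 to 89.9 CPM early and 78.4 to 83.1 CPM late (1 of 6 lower), and 52.8 to 59.7 CPM in WT and 117 to 121 CPM in AMPK-KO (2 higher and 1 lower of 5 tested). Basophil or mast cell markers stayed at or below 2.21 CPM in all samples. Of the macrophage markers, 1 of 10 was called higher and 1 lower by stage and 2 higher and 2 lower by genotype. By stage these were C1qa (log2 fold change 0.49) and Mrc1 (-0.62). By genotype Itgam, the gene of the sorting marker CD11b, rose by 0.55 and Csf1r by 0.14. Cd68 (-0.55) and Mrc1 (-0.51) were lower in AMPK-KO. The blood cell genes Nckap1l, Rac2 and Abi3 rose with genotype together with Itgam, Csf1r and the T cell, NK cell and dendritic cell markers. The part of changes in cell types or in macrophage state in those rises was not tested.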

How the data were processed

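TAM RNA was sequenced in 12 samples, 3 per group. The deposited files hold raw gene counts, 1 table per comparison, which the authors made with featureCounts after alignment by HISAT2. Tool versions are not given in the sources used here. The methods name GRCh38, the submitters' processing notes mm10 and GRCm38, and 54349 of the 55401 identifiers match GENCODE M21 (GRCm38) with their version, all 10 members among them, so positions, exon lengths and sequences came from that annotation.

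Each table was fitted whole with edgeR 4.0.16 in R 4.3.3 (filterByExpr, TMM, glmQLFit, glmQLFTest, no covariate). A gene was called at a Benjamini-Hochberg adjusted p under 0.05 over all genes tested. SE is the log2 fold change over the square root of F. CPM per kb used merged exon length, log2 CPM a prior count of 2. The ratio of Nckap1 to Nckap1l was compared by a two-sided exact permutation test. Coding sequences were aligned base by base in Python 3.11.15. The fits were tested on simulated counts. No pair of replicates agreed within sampling noise. All 12 columns were used. The replicate numbers did not pair the samples.

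All 10 members are named, with up to 2 called genes of smallest adjusted p per list, direction and comparison, the 5 genes most like Nckap1 and Nckap1l, Prkaa1 and marker lists (macrophage, melanoma, fibroblast, T, NK and B cell, neutrophil, conventional and plasmacytoid dendritic cell, basophil or mast cell, endothelial, and Y-linked genes). Xist was listed with the Y-linked genes. Fam49a and Fam49b by stage and Tiam1 by genotype were named after their values were seen. One list and some sequences are not reported here. Members and lists were chosen with earlier results of these data known. Alternatives were upper-quartile or RLE factors, 2 other filters, DESeq2 1.42.0, a replicate block, each library left out in turn, the study's call rule, coding length, 0.5 added to counts and, after the data were seen, a length trend covariate.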

Additional observations from a re-analysis of the deposited data

How the results depend on the processing

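Over 260 pairs of a member's fold change and an alternative, the direction and the side of the threshold held in 219, calls were gained in 17 and lost in 15, and the sign turned in 9. By stage, DESeq2 called 4 members (3 higher), a minimum of 10 counts in every library 2 higher, no filter beyond 1 count 0 (0 higher and 0 lower), the study's rule 0, and the length trend as a covariate 6 (4 higher and 2 lower). Leaving out single libraries gave 0 to 6 members by stage (0 to 4 higher, 0 to 2 lower). By genotype it gave 3 to 6 members (2 to 5 higher, 5 without WT replicate 1), the study's rule again 0, and the other alternatives 3 to 5. Leaving out a library lowers the number of samples, and the cause of the other changes was not tested. Over all genes, calls by stage were 2650 with DESeq2, 936 without the filter, 3537 with the length trend and 653 to 2835 without single libraries, and by genotype 2414 without WT replicate 3 and 2419 without AMPK-KO replicate 2. The sign turned for Rac1 by stage with upper-quartile factors (-0.00020) and among fits without single libraries (-0.036 to 0.060, negative without early-stage replicate 1 or late-stage replicate 3), and for Brk1 without single libraries (-0.067 to 0.073 by stage, positive without early-stage replicate 1 or late-stage replicate 1 or 2, and -0.090 to 0.054 by genotype, positive without WT replicate 2 or AMPK-KO replicate 1) and with the length trend by genotype (0.099). The ratio of Nckap1 to Nckap1l kept its direction throughout, from -0.85 to -0.56 by stage and -0.99 to -0.83 by genotype without single libraries. With coding length Nckap1 was 3.14% of Nckap1l in AMPK-KO.

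Samples with the same replicate number did not deviate together (correlations of 0.01 to 0.03 by stage and -0.00 to 0.04 by genotype), so that they share only a number. With the replicate number as a block, 2 members were called by stage and 5 by genotype, Wasf2 being the one gained (0.18, adjusted p = 0.0408), of 1417 and 3862 genes called.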
